A study of Mus musculus with 8 samples.

Results

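The 7 genes described here, Sgms1, Ralgapa1, Btaf1, Vps13b, Cmya5, Ptprs and Rbm12, had in common a low read count in the microglia of 18-month-old mice after stroke. They were chosen by their read counts, since both libraries of that group lay low against the other groups in an earlier fit of the same table, and most of them have long transcripts. All 7 were among the 17261 genes of the count table and among the 11955 genes that had enough counts to be tested. The low level in aged dMCAO is what chose the genes. For the 7 genes, comparisons that hold that group are therefore given as a description, with no p-value and no count of calls. Their p-values are given for comparisons between the other groups.

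RNA was sequenced from microglia, the resident macrophages of the brain, sorted by flow cytometry as CD11b+ cells with intermediate CD45. All mice were male wild-type C57BL/6 and were killed 14 days after surgery. Young mice were 10 weeks old and aged mice 18 months old, and each age had either sham surgery or dMCAO, a stroke model in which the distal part of the middle cerebral artery is closed. Each of the 4 combinations of age and surgery had n = 2 libraries. Nothing in the labels says that the 2 libraries of a group came from separate animals, so p-values measure only the spread between these samples. The sort leaves whole populations of cells, in which fewer cells of a type and less RNA per cell cannot be told apart.

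The 7 genes belong to no single pathway. Sgms1 and Vps13b act on membrane lipids: Sgms1 is the Golgi sphingomyelin synthase, which moves phosphocholine onto ceramide, and Vps13b is a bridge-like lipid transfer protein of the Golgi. Ralgapa1 and Ptprs act in signalling: Ralgapa1 is a catalytic subunit of the complex that switches off Ral GTPases, and Ptprs is a receptor tyrosine phosphatase of the LAR family that binds heparan and chondroitin sulfate proteoglycans. Btaf1 and Rbm12 act in the nucleus: Btaf1 is the ATPase that removes the TATA-binding protein TBP from DNA, and Rbm12 is an RNA-binding protein with RNA recognition motifs. Cmya5, or myospryn, is a large scaffold protein best known from striated muscle.

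In the GENCODE M21 annotation on GRCm38, all 7 are protein-coding genes. Vps13b (chr15:35371160-35931229, plus strand) has 21273 bases of exon when the exons of its transcripts are merged, Ptprs (chr17:56412426-56476483, minus strand) has 14990 and Ralgapa1 (chr12:55602896-55821167, minus strand) has 12315. Cmya5 (chr13:93040713-93144724, minus strand) has 11850 bases, Sgms1 (chr19:32122727-32389714, minus strand) has 10546 and Btaf1 (chr19:36926079-37012752, plus strand) has 10259. These 6 fell among the longest 10% of tested genes by exon length. Rbm12 (chr2:156091958-156111978, minus strand), with 6689 bases, did not, at the 73.0th percentile. The exon length of Sgms1 is spread over 15 transcripts, the longest of 4036 bases (61.7th percentile). A long message thus describes 6 of the 7 by merged exons, but not Sgms1 by its longest transcript. By that measure Rbm12, at 6667 bases (89.1th percentile), was close to Ptprs, at 6855 bases (90.0th percentile), which has 21 transcripts. In base composition Ptprs stood apart, with 60.3% G and C against 42.0% to 48.8% in the other 6.

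RefSeq promoter windows, the 250 bases before a start site on GRCm38.p6, were found for 6 of the 7 genes, 11 windows in all. Of 7 motifs searched on both strands, TGACGTCA, the palindromic cAMP response element, was held by the fewest windows, 1.55% of all 32851. It was in 1 of the 2 windows of Ralgapa1 (chr12:55821168-55821417, minus strand), starting 62 and 46 bases before the start site, and in that of Btaf1 (chr19:36925829-36926078, plus strand), starting 9 bases before it. Both windows are printed 5′ to 3′ with TGACGTCA in capitals.
Ralgapa1: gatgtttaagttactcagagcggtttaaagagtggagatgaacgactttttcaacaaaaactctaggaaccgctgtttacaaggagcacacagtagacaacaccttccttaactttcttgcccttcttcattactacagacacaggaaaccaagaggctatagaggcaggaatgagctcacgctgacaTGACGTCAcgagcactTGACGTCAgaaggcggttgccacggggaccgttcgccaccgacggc
Btaf1: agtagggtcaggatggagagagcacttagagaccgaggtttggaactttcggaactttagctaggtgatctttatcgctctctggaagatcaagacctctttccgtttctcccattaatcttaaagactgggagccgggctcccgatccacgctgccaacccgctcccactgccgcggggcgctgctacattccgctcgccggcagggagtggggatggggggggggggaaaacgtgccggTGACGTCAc
GGGCGG was in windows of Sgms1 and Ptprs (32.7% of all windows) and CCAAT in a window of Sgms1 (33.8%). CACGTG occurred 3 times in a window of Ptprs (6.02%), which also held the NRF1 motif (3.74%). TATAAA (12.4%) and CCGGAAGT (2.88%) were in none of the 11. No motif was held by more than 2 of the 6 genes. A match is a run of letters and not evidence of binding.

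The libraries differed in depth. Total counts were 4181698 to 5767387 in the 4 young libraries, 1484870 and 5124213 in aged sham, and 747637 and 1297568 in aged dMCAO. A total of 3 counts was worth 4.29 and 3.28 CPM (counts scaled to the library total, with TMM factors) in the 2 aged dMCAO libraries. The 16 homeostatic microglia markers, among them P2ry12 and Tmem119, had none at 0 in both aged dMCAO libraries and a summed level there of 25135 and 17426 CPM against 8051 to 26069 in the other 6. The lowest of these, aged sham 2, also had the highest sum of 11 monocyte markers, 6075 CPM against 134 to 1107 elsewhere. The sum of 9 ependymal and choroid plexus markers was 5337 and 3643 CPM in aged dMCAO and 3.54 to 897 in the other 6, with 3 of the 9 at 0 in both aged dMCAO libraries. For the 10 oligodendrocyte markers the sum was 986 and 771 CPM in aged dMCAO and 85.1 to 406 elsewhere, with 3 at 0 in both aged dMCAO libraries, and for 9 neutrophil markers it was 707 and 829 against 1215 to 1922, again with 3 at 0. The summed level of 10 neuron markers was 102 CPM in aged dMCAO 1, 24.1 in aged dMCAO 2 and 3.50 to 9.36 in the other 6, with 6 at 0 in both aged dMCAO libraries. The ribosomal RNA gene Rn45s took 13.4% and 34.3% of counts in aged dMCAO and 3.44% to 12.7% elsewhere, and the nuclear RNA Malat1 took 0.341% and 0.468% against 1.34% to 2.48%. The part of these differences in the levels of the 7 genes was not tested, except that leaving Rn45s out of the counts changed no direction among them.

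Among the lipid genes, Sgms1 gave 303 and 331 reads in young sham, 258 and 261 in young dMCAO, 121 and 507 in aged sham, and 2 and 1 in aged dMCAO. Its level was 47.9 and 65.6 CPM in young sham, 56.5 and 48.6 in young dMCAO, 86.6 and 86.3 in aged sham, and 2.86 and 1.09 in aged dMCAO. Both aged sham libraries lay above all others, the young groups overlapped, and the lowest of the 6 libraries outside aged dMCAO was 16.7 times the higher aged dMCAO library, which held 2 reads. Vps13b gave 17 and 27 reads in aged dMCAO. Its level was 179.6 and 187 CPM in young sham, 201 and 180.0 in young dMCAO, 163 and 268 in aged sham, and 24.3 and 29.5 in aged dMCAO. The aged sham libraries bracketed all 4 young ones, so the order of those 3 groups was not resolved, while the gap to aged dMCAO was 5.50 times.

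Of the signalling genes, Ralgapa1 gave 550 to 631 reads in the young libraries, 158 and 724 in aged sham, and 7 and 5 in aged dMCAO. Its level was 99.7 and 109.6 CPM in young sham, 120.4 and 117 in young dMCAO, 113 and 123 in aged sham, and 10.0 and 5.47 in aged dMCAO. It was the most even of the 7 outside aged dMCAO, where its highest library was 1.24 times its lowest. Ptprs kept more reads in aged dMCAO, 18 and 26. Its level was 199 and 201 CPM in young sham, 184 and 151 in young dMCAO, 114 and 103 in aged sham, and 25.7 and 28.4 in aged dMCAO. The 4 groups of Ptprs did not overlap, with aged dMCAO lowest, then aged sham, young dMCAO and young sham, and its gap of 3.62 times was the narrowest among the 7.

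Of the nuclear genes, Btaf1 gave 823 to 1230 reads in the young libraries, 162 and 752 in aged sham, and 9 and 6 in aged dMCAO. Its level was 194 and 163 CPM in young sham, 196 and 196 in young dMCAO, 116 and 128 in aged sham, and 12.9 and 6.56 in aged dMCAO. Aged sham lay between the young groups and aged dMCAO without overlap. Rbm12 gave 1 and 2 reads in aged dMCAO and 47 and 187 in aged sham. Its level was 49.0 and 48.3 CPM in young sham, 34.8 and 43.2 in young dMCAO, 33.6 and 31.8 in aged sham, and 1.43 and 2.19 in aged dMCAO. The groups other than aged dMCAO did not overlap, but young dMCAO 1 and aged sham 1 differed by little.

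Cmya5, the muscle scaffold gene, gave 289 to 441 reads in the young libraries, 35 and 147 in aged sham, and 1 and 1 in aged dMCAO. Its level was 69.7 and 83.2 CPM in young sham, 67.2 and 53.8 in young dMCAO, 25.1 and 25.02 in aged sham, and 1.43 and 1.09 in aged dMCAO. It had the largest spread outside aged dMCAO, where its highest library was 3.33 times its lowest, and a gap of 17.5 times that rests on 1 read in each aged dMCAO library. The 5 skeletal muscle markers in the count table summed to 1.09 to 32.9 CPM over the 8 libraries, with Ckm at 0 in each.

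**Figure D1:**
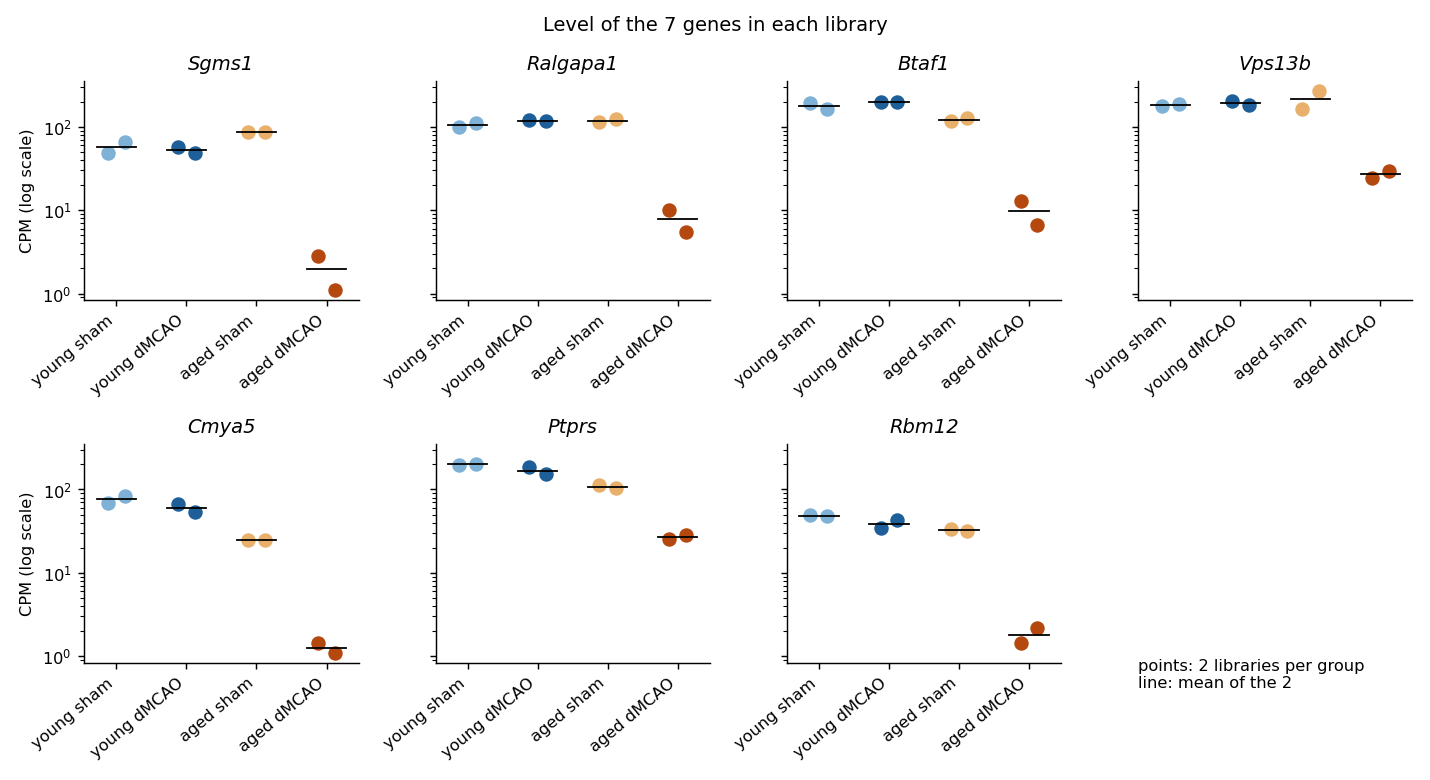
Level of the 7 genes in each library, in CPM on a log scale, by group; each point is 1 of the 2 libraries of a group and each line their mean. In every panel both aged dMCAO points lie below the other 6, by a gap of 3.62 times in Ptprs up to 17.5 times in Cmya5.

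For all 7 genes both aged dMCAO libraries lay below each of the other 6, a pattern that 18.6% of the tested genes shared. Against aged sham alone 23.8% of tested genes were lower without overlap, and against young dMCAO alone 40.4%. A gap of more than 3 times, a limit set after the values were seen, was met by all 7 and by 7.58% of the tested genes, 906 in number. Since the genes were picked for this pattern, the counts describe the choice. Scaled to exon length, the order of the genes differed between groups. In young sham the mean level was 17.4 CPM per kb for Btaf1, 13.3 for Ptprs, 8.61 for Vps13b, 8.50 for Ralgapa1, 7.27 for Rbm12, 6.45 for Cmya5 and 5.38 for Sgms1. In aged dMCAO it was 1.81 for Ptprs, 1.27 for Vps13b and 0.947 for Btaf1, and between 0.107 and 0.629 for the other 4, so Btaf1 went from the first place to the third.

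The sizes of the difference between aged dMCAO and aged sham varied among the genes. Had the aged sham level held, the 2 aged dMCAO libraries would have given 60.4 and 79.0 reads of Sgms1 in place of 2 and 1, 17.5 and 22.9 of Cmya5 in place of 1 and 1, and 22.5 and 29.4 of Rbm12 in place of 1 and 2. With so few reads the fold is uncertain. Sgms1 was 46.4-fold lower (exact 95% interval 15.8 to 226), Cmya5 20.2-fold (5.51 to 168) and Rbm12 17.3-fold (5.85 to 84.5). Ralgapa1 was 16.3-fold lower (9.29 to 31.7), Btaf1 13.5-fold (8.15 to 24.3), Vps13b 9.10-fold (6.75 to 12.6) and Ptprs 3.85-fold (2.84 to 5.35). These intervals cover counting error only, since the reads of the 2 libraries of a group were summed, and leave out the spread between libraries. They describe values that chose the genes and test nothing. That of Ptprs lay below the intervals of the other 6, and those of Sgms1, Cmya5, Rbm12, Ralgapa1 and Btaf1 overlapped. Neither sets an order among the genes.

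On the log2 scale of the edgeR model, aged dMCAO against aged sham gave −5.49 ± 0.65 (SE) for Sgms1, −4.29 ± 0.69 for Cmya5, −4.12 ± 0.72 for Rbm12, −3.96 ± 0.44 for Ralgapa1, −3.68 ± 0.42 for Btaf1, −2.997 ± 0.37 for Vps13b and −2.00 ± 0.33 for Ptprs. The median of the 7 was −3.96, beside −0.29 over all tested genes. Between 10.3% and 20.8% of the tested genes had a fold as low as or lower than each of the 7 in this model. From Sgms1 to Ptprs that share was 2.61% to 19.6% by DESeq2 and 0.770% to 17.6% by limma-voom. With edgeR on the 2 groups alone it was 2.26% to 9.50% of the genes tested there. How common folds of this size were thus depended on the fit. Over all tested genes edgeR called 0.0335% in this comparison, DESeq2 9.73%, limma-voom 0.00836% and edgeR on the 2 groups alone 0%.

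Aged dMCAO against young dMCAO shares the aged dMCAO libraries with that contrast and gave −5.57 ± 0.69 for Cmya5, −4.77 ± 0.65 for Sgms1, −4.38 ± 0.72 for Rbm12, −4.36 ± 0.42 for Btaf1, −3.96 ± 0.44 for Ralgapa1, −2.82 ± 0.37 for Vps13b and −2.62 ± 0.33 for Ptprs. The median of the 7 was −4.36, beside −0.32 over all tested genes. Over all tested genes edgeR called 0.0753%, DESeq2 11.7%, limma-voom 0.569% and edgeR on the 2 groups alone 0%. The interaction, which asks how far the dMCAO response differed between the ages, was −1.74 for Ptprs to −5.38 for Sgms1, with a median of −3.81 beside −0.36 over all tested genes. In the interaction edgeR called 0% of tested genes, of which 1242 had an unadjusted p under 0.05, DESeq2 2.97% and limma-voom 0%.

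**Figure D2:**
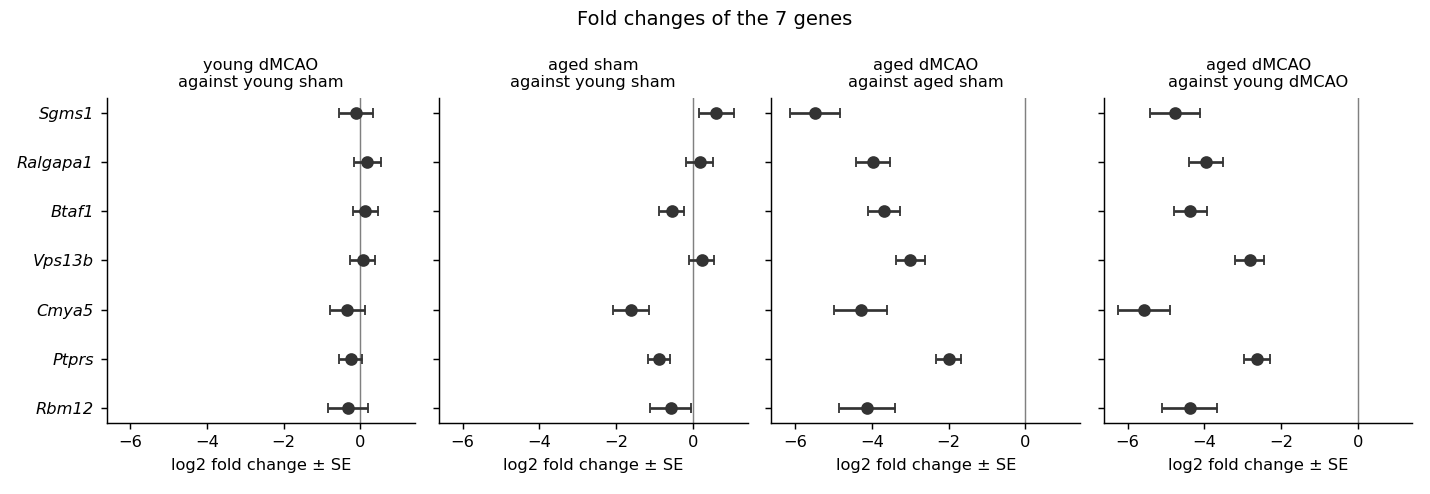
Log2 fold change ± SE of each gene in 4 comparisons, from the edgeR model over the 8 libraries. The young comparison runs from −0.34 to 0.18 around 0, and in both comparisons with aged dMCAO all 7 genes lie at −2.00 or lower.

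The comparison of stroke with sham in young mice holds no aged dMCAO library. In the edgeR model over all 8 libraries, whose groups share an estimate of the spread, no estimate of this comparison for the 7 genes exceeded its SE. The young groups were part of the reference against which the genes were picked, but the contrast between them was not used. Young dMCAO against young sham gave 0.18 ± 0.35 for Ralgapa1, 0.13 ± 0.33 for Btaf1, 0.057 ± 0.33 for Vps13b, −0.11 ± 0.45 for Sgms1, −0.25 ± 0.29 for Ptprs, −0.32 ± 0.53 for Rbm12 and −0.34 ± 0.46 for Cmya5. None of the 7 passed edgeR's quasi-likelihood test (adjusted p = 1.00 for each), beside 0.00836% of tested genes, and none had an unadjusted p under 0.05, which 148 genes did. DESeq2 called 33 genes (0.36%) and none of the 7, and limma-voom called 0. With the young libraries alone edgeR called 173 genes (1.53%) and none of the 7. In that fit Cmya5 (−0.34 ± 0.18), Rbm12 (−0.32 ± 0.19), Ptprs (−0.25 ± 0.15) and Ralgapa1 (0.18 ± 0.15) exceeded their SE. Sgms1, Btaf1 and Vps13b did not. By limma-voom the estimates of Cmya5, Rbm12 and Ptprs exceeded their SE. The young dMCAO libraries lay wholly below young sham for Cmya5, Ptprs and Rbm12 (lower without overlap in 20.4% of tested genes) and wholly above it for Ralgapa1 and Btaf1 (20.7%).

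Age without stroke divided the 7 genes in the direction of their estimates. Aged sham against young sham gave −1.61 ± 0.47 for Cmya5 (adjusted p = 0.356 by edgeR), −0.88 ± 0.30 for Ptprs (adjusted p = 0.408), −0.57 ± 0.53 for Rbm12 (adjusted p = 0.867) and −0.55 ± 0.33 for Btaf1 (adjusted p = 0.715). It gave 0.61 ± 0.46 for Sgms1 (adjusted p = 0.806 by edgeR), 0.24 ± 0.33 for Vps13b (adjusted p = 0.926) and 0.18 ± 0.35 for Ralgapa1 (adjusted p = 0.956). By edgeR none of the 7 and 0% of tested genes were called, while 1129 genes had an unadjusted p under 0.05, Cmya5 and Ptprs among them. DESeq2 called Cmya5 (−1.56, adjusted p = 0.0201) among 390 genes, 3.61% of those it tested, and limma-voom called 3 genes (0.0251%) and none of the 7. Aged sham lay wholly below young sham for Cmya5, Ptprs, Btaf1 and Rbm12 (26.1% of tested genes) and wholly above it for Sgms1 and Ralgapa1 (18.3%). Without aged sham 2, the library with the high monocyte marker sum, Vps13b turned to −0.17.

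Most of the 7 have long exons, so the fold change was set against exon length over the 11533 tested genes with a length. Across genes, which are not independent replicates, Spearman's rho of exon length with the log2 fold change of aged dMCAO against aged sham was 0.011, and with that of aged dMCAO against young dMCAO −0.025. The genes were divided by length into 10 classes of about equal size. The median log2 fold change against aged sham was −0.37 in the shortest class, −0.18 in the fourth and −0.34 in the longest, which held 1154 genes of 10075 to 123179 bases. Of the 1148 genes of the longest class other than the 6 described here, 64.5% were below 0 and 62 had a gap over 3 times. Over all tested genes 59.4% were below 0. That gap was met by 5.89% of the longest class and by 10.9% of the shortest, whereas both aged dMCAO libraries were below the other 6 in 24.4% of the longest class and 16.4% of the shortest. Against young dMCAO the median was −0.14 in the shortest class and −0.46 in the longest. Read depth moved with length: the median total count over the 8 libraries was 269 in the shortest class and 1996 in the longest, and 23.7% and 5.11% of genes were at 0 in both aged dMCAO libraries. The median of the longest class differed from that of all genes with a length by −0.057, by −0.16 in FPKM and by −0.15 among genes with a mean of at least 5 CPM.

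**Figure D3:**
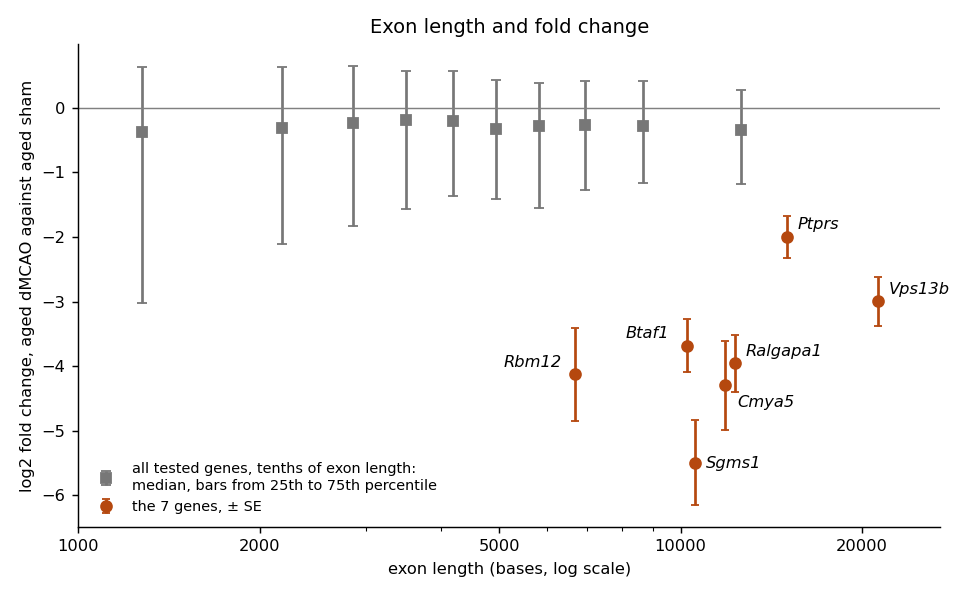
Log2 fold change of aged dMCAO against aged sham by exon length in bases (log scale); squares are medians of 10 classes of tested genes by length with bars from the 25th to the 75th percentile, and circles are the 7 genes ± SE. The medians stay between −0.37 and −0.18 over all lengths, and the 7 genes lie below the bars of genes of their length.

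Other genes were taken from 7 lists by function and 1 list of very long messages. By edgeR, none of the 156 tested genes in the 8 lists was called in any of the 5 comparisons, while 37 of them had an unadjusted p under 0.05 in aged dMCAO against aged sham, as did 2187 of the 11955 genes tested. There DESeq2 called 18 of the 156, beside the 9.73% it called of all genes, and limma-voom called 0. Of 27 other genes of sphingolipid metabolism, 18 were below 0 in aged dMCAO against aged sham, with a median of −0.23 beside −0.29 for all tested genes and −5.49 for Sgms1. The ceramide kinase Cerk, with the highest level of the list, was at 0.089 ± 0.31 and the acid ceramidase Asah1 at −0.77 ± 0.38. Lower members of the list were the ceramidase gene Acer2, with 0 reads in aged dMCAO and 12 and 1 in aged sham, and the ceramide synthase gene Cers4, with 1 and 1 against 43 and 69. In the deeper young libraries Acer2 gave only 7 to 12 reads and Cers4 2 to 32. At the young level, aged dMCAO libraries would thus hold few reads of either gene. Smpd4 had 58 and 186 reads in the aged sham libraries but 0 and 6 in those of aged dMCAO, and Ormdl2 had 13 and 138 but 0 and 3. Of 18 other genes of the Ral GTPase cycle, 11 were below 0, with a median of −0.18, and the GTPase gene Ralb was at 0.010 ± 0.47. Of 22 other genes of TBP and its regulators, 12 were below 0, with a median of −0.027, and the TFIID subunit Taf1 was at −0.39 ± 0.39. Gtf2a2, a TFIIA subunit gene, gave 0 reads in both aged dMCAO libraries against 13 and 252 in aged sham, below Btaf1 in fitted fold. Neither the Ral nor the TBP list had a median below that of all genes.

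The list of bridge-like lipid transfer proteins, the family of Vps13b, also held genes outside that family. These were Rab6a (0.038), Rab6b (−0.29), Stx6 (1.06) and Stx12 (0.84). With them, the 13 genes of the list other than Vps13b had a lower median, −0.88, with 9 below 0 (59.4% of all tested genes). Of the 13, 5 had both aged dMCAO libraries below the other 6 (18.6%). Vps13d was the lowest of them, at 400 and 411 CPM in young sham, 377 and 368 in young dMCAO, 210.5 and 394 in aged sham, and 102 and 103 in aged dMCAO. Its log2 fold change against aged sham was −1.57 ± 0.34 (adjusted p = 0.126 by edgeR), nearer to 0 than that of Vps13b. Of 13 partners of myospryn and subunits of BLOC-1, 8 were below 0, with a median of −0.092, and none had both aged dMCAO libraries below the other 6. Actn2, below Cmya5 in fitted fold at −6.96, gave 0 reads in both aged dMCAO libraries and 0 and 45 in aged sham. Of 20 other receptor tyrosine phosphatases and LAR partners, 14 were below 0 and 6 above, with a median of −0.17. The LAR partner Trio was at −0.097 ± 0.29. Values ran from −6.97 for Vcan, below Ptprs, to 5.96 for Bcan. Vcan gave 0 and 1 reads in aged dMCAO, 90 and 567 in aged sham and 16 to 175 in the young libraries. Ptprc, which encodes the sort marker CD45, was at −1.60 ± 0.50 (adjusted p = 0.174), with 1357 CPM in aged sham 2 and 265 to 516 in the other 7 libraries.

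Of 8 relatives and neighbours of Rbm12, 6 were below 0, with a median of −0.53. The related RNA-binding protein genes Hnrnpf, at −0.51 ± 0.25, and Hnrnph1, at −0.56 ± 0.35, were nearer to 0 than Rbm12. Rbm12b1, a paralog, gave 0 reads in both aged dMCAO libraries, 0 and 71 in aged sham and 21 to 60 in the young libraries, and its fitted fold was below that of Rbm12. Cpne1 lies across Rbm12 on the same strand and shares 404 exon bases with it, so the split of reads between them is uncertain. The annotation also places Gm28036 there, with 2182 shared exon bases on that strand. Cpne1 was at 37.0 and 49.7 CPM in young sham, 41.2 and 33.5 in young dMCAO, 67.3 and 60.4 in aged sham, and 18.6 and 15.3 in aged dMCAO. Its aged dMCAO libraries were also below the other 6, by a narrower gap than those of Rbm12. Vps13b shares 250 exon bases with Cox6c on the opposite strand, and Cox6c, at 22.9 and 66.7 CPM in aged dMCAO against 8.59 to 62.8 elsewhere, did not follow it. Cmya5 shares 2451 exon bases with the antisense gene A630019I02Rik, which gave 0 to 8 reads per library, and the sources used here do not give the strand setting of the counting.

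In a list of 35 other very long messages, 33 were below 0 in aged dMCAO against aged sham, with a median of −0.72. Of all tested genes 59.4% were below 0. Of the 1148 genes of the longest class by exon length other than the 6, 64.5% were, with a median of −0.34. Both aged dMCAO libraries were below the other 6 in 18 of the 35, in 24.4% of the longest class and in 18.6% of all tested genes. A gap over 3 times was met by 1 of the 35. Macf1, a cytoskeletal crosslinker, was the most abundant, at 4355 and 4314 CPM in young sham, 4372 and 3912 in young dMCAO, 2640 and 3080 in aged sham, and 1240 and 859 in aged dMCAO (−1.45 ± 0.32, adjusted p = 0.126 by edgeR). The endocytic receptor gene Lrp1 was at −0.64 ± 0.33 and the linker gene Dst at −0.23 ± 0.45. The lowest of the list, Ahnak at −3.16, gave 323 and 15013 reads in aged sham, 22 and 255 in aged dMCAO and 205 to 1399 in the young libraries. These reads are not scaled to depth. On TMM-scaled totals of 914247 in aged dMCAO 2 and 1396881 in aged sham 1, Ahnak was higher in aged dMCAO 2. Its low fold thus rests mainly on aged sham 2.

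**Figure D4:**
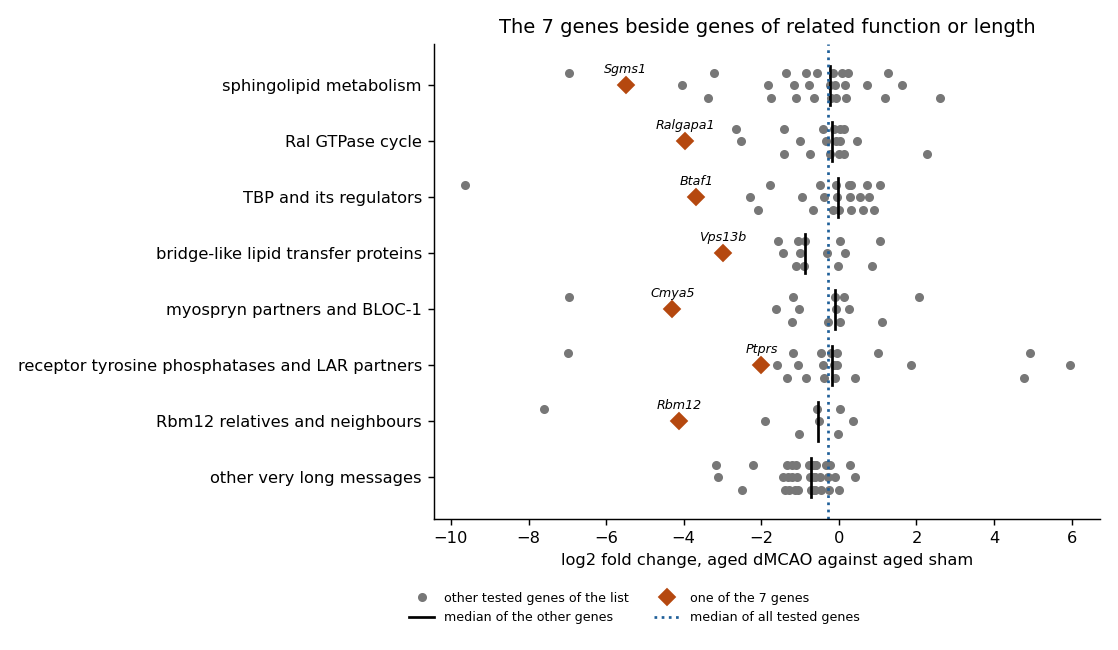
Log2 fold change of aged dMCAO against aged sham for the tested genes of 8 lists; grey points are the other genes of a list, black lines their median, diamonds the 7 genes, and the dotted line the median of all tested genes, −0.29. List medians run from −0.88 to −0.027 and the 7 genes from −5.49 to −2.00. In 5 of the 7 lists by function a gene lies below the one of the 7. Fitted values of genes at 0 in aged dMCAO depend on the default prior count of the edgeR model.

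The genes whose levels ran most like the mean of the 7 over the 8 libraries were Adck2 and Sgsh (Pearson's r 0.998 for both), Pnpt1 (0.997), Alg12, Rad1, Fam199x and Wwox (0.996 for each) and Hmces (0.995). These r describe a likeness that mostly contrasts the 2 aged dMCAO libraries with the other 6. Of 8155 genes compared, 166 had r over 0.95 and 421 over 0.9. Adck2 gave 134 and 102 reads in young sham, 99 and 100 in young dMCAO, 21 and 88 in aged sham, and 0 and 0 in aged dMCAO. All 8 except Fam199x, with 1 read in each, were at 0 in both aged dMCAO libraries. They were not long as a group: 5 of the 8 had an exon length below the median of tested genes, from 2356 bases in Alg12, while Wwox had 10173.

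The authors' deposited FPKM, a second measure scaled to gene length, was used for the same genes other than Rbm12. In 5 of the 6 genes both aged dMCAO libraries were below the other 6 in FPKM. The FPKM come from the libraries that chose the genes, so this describes the choice. The share of all genes with this pattern in FPKM was not computed. Ptprs was at 17.3 and 19.9 FPKM in young sham, 20.1 and 11.6 in young dMCAO, 6.09 and 7.19 in aged sham, and 0.787 and 0.973 in aged dMCAO. Ralgapa1 was at 0.106 and 0.312 FPKM in aged dMCAO and 4.56 to 8.43 elsewhere, and Vps13b at 0.233 and 0.462 against 3.77 to 16.5. Cmya5 was listed at 0 in aged sham 1 and aged dMCAO 2, at 0.736 in aged sham 2 and at 0.0147 in aged dMCAO 1, so its aged libraries overlapped in this table.

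Both tables come from the same libraries but did not give the same levels for every gene. Sgms1 was listed at 184 FPKM in aged sham 2, where its count gave 8.18 CPM per kb of exon, a ratio of 22.5. In the other 5 libraries outside aged dMCAO that ratio was 0.893 to 1.47, so the high FPKM of Sgms1 in aged sham rests on 1 library. Btaf1 was at 62.5 and 34.0 FPKM in young sham and 70.2 and 65.0 in young dMCAO, against 4.55 and 8.81 in aged sham and 0.123 and 0.401 in aged dMCAO. Its ratio of FPKM to CPM per kb was 2.14 to 3.68 in the young libraries and 0.402 and 0.706 in aged sham, so the difference of Btaf1 between young and aged sham was larger in FPKM than in counts.

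**Figure D5:**
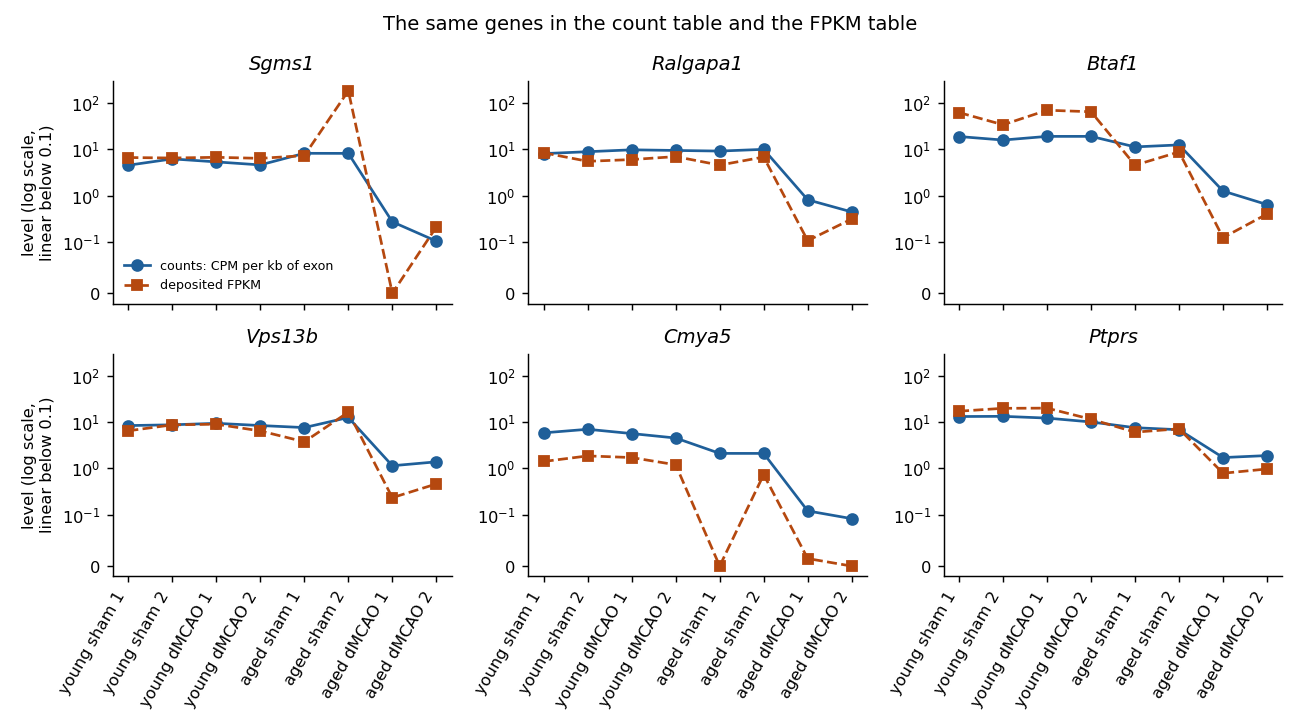
Level of 6 of the genes in the 8 libraries as CPM per kb of exon from the counts (circles) and as deposited FPKM (squares), on an axis that is logarithmic above 0.1 and linear below. The aged dMCAO libraries are lowest in both measures except for Cmya5 in FPKM, and Sgms1 in aged sham 2 stands at 184 FPKM against 8.18 CPM per kb.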

How the data were processed

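RNA was taken from sorted microglia of 8 samples in 4 groups of 2, and libraries were made with a SMARTer Stranded Total RNA-Seq (Pico) kit, per the labels' protocols. The submitters' processing notes name TopHat, TopHat2, Cufflinks 2.2.1, HTSeq 0.11.2 and the mouse build mm10. Of strand setting and annotation the sources say nothing (not given in the sources used here). The authors deposited raw counts per gene symbol for 17261 genes and, in a second table, FPKM for 23827 genes. No FPKM were found under the symbol Rbm12, so none are given for it.

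Genes were kept by filterByExpr with a minimum count of 10 and a minimum total of 15, which left 11955. In R 4.3.3, edgeR 4.0.16 fitted 1 quasi-likelihood model over all 8 libraries with TMM factors, a mean per group and 4 residual degrees of freedom. A prior count of 2 was used for log2 CPM only, and the model kept edgeR's default prior count. SE is the absolute log2 fold change divided by the square root of the test's F. A gene was called at a Benjamini-Hochberg adjusted p under 0.05, from two-sided tests, with the adjustment taken over the whole table of tested genes. Alternatives were RLE and upper-quartile factors, DESeq2 1.42.0, limma 3.58.1 (voom on counts, and trend on log2 of FPKM with a pseudocount of 1 or 0.1, kept at a mean FPKM of at least 1, or unfiltered), other filters, only the groups compared, replicate blocks, thinning of every library to the smallest total, Rn45s left out, and each library left out in turn. Where that leaves a group with 1 library, it is assumed to vary like the other groups. Exact binomial intervals at 95% were used for ratios of summed reads. Exon lengths from GENCODE M21 covered 96.5% of tested genes. The edgeR script was tested on simulated data. Plots were made in Python 3.11.15 (matplotlib 3.10.9).

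The 7 genes and the lists were chosen with earlier results of these data known. Beside the 7, the text names genes among the 3 of highest mean CPM in each list, the 8 most alike by Pearson's r, and genes whose exons overlap a member. Acer2, Cers4, Smpd4, Ormdl2, Gtf2a2, Rbm12b1, Ahnak, Vcan, Bcan and Actn2 were named after their values were seen. Rab6a, Rab6b, Stx6 and Stx12 are named to describe their list.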

Additional observations from a re-analysis of the deposited data

Results flagged for a closer look

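Ralgapa1 and Btaf1 were picked out because in young mice both libraries after dMCAO were higher than both after sham surgery, as in 20.7% of tested genes, and below both in aged mice, for which the genes were chosen. The young estimates over all 8 libraries, 0.18 ± 0.35 for Ralgapa1 and 0.13 ± 0.33 for Btaf1, were smaller than their SE (adjusted p = 1.00 by edgeR). With the young libraries alone they were 0.18 ± 0.15 for Ralgapa1, above its SE, and 0.13 ± 0.15 for Btaf1. That of Ralgapa1 was −0.42 with the libraries thinned and −0.068 in FPKM, and that of Btaf1 was −0.011 without young sham 2. The difference between the aged and the young response was −4.14 on the log2 scale for Ralgapa1 and −3.81 for Btaf1. No p is given for it, since the choice of the genes used it, and an opposite response at the 2 ages was not shown.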

How the results depend on the processing

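In the 3 contrasts with aged dMCAO all 7 genes stayed below 0 in each of 440 values over all alternatives, and 45 of these values moved by more than the SE. The genes were chosen for low counts in these same libraries, so the direction was set by the choice and is no separate support. In the other 2 contrasts 279 of 298 kept direction and call. Reversed for young dMCAO against young sham were, with every library thinned to the smallest total, Sgms1 (0.081), Ralgapa1 (−0.42), Vps13b (−0.14), Ptprs (0.073) and Rbm12 (0.40), in FPKM Ralgapa1 (−0.068 and −0.073 at pseudocounts 1 and 0.1, −0.068 unfiltered), and with 1 library left out Sgms1 (−0.36 to 0.11, above 0 without young sham 2), Btaf1 (−0.011 to 0.22, below 0 without young sham 2) and Vps13b (−0.060 to 0.11, below 0 without young sham 1 or young dMCAO 1). For aged sham against young sham they were Ralgapa1 (−0.25, −0.28 and −0.25 in FPKM at pseudocounts 1 and 0.1 and unfiltered, −0.054 thinned) and Vps13b (−0.17 to 0.53 with 1 library left out, below 0 without aged sham 2). The cause was not tested.

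Counts of calls depended on the tool. For aged dMCAO against aged sham, 4 genes were called, 1050 by DESeq2, 1 by limma-voom, 672 unfiltered, 0 with only the groups compared, 0, 116 and 0 in FPKM (pseudocount 1, 0.1, unfiltered) and 1 thinned. Against young dMCAO there were 9, with RLE factors 4, by DESeq2 1233, by limma-voom 68, unfiltered 735, with only the groups 0, and in FPKM 1044, 1689 and 157. For aged against young sham there were 0, by DESeq2 390, by limma-voom 3, unfiltered 322, in FPKM 27, 26 and 16, and thinned 4. For the interaction there were 0, by DESeq2 300, unfiltered 210, in FPKM 9, 5 and 2, and thinned 2. For the young comparison there was 1, by DESeq2 33, by limma-voom 0, unfiltered 32, with only the groups 173, in FPKM 16, 7 and 14, and thinned 2. Of the 7 genes, 0 were called in aged against young sham, 1 by DESeq2. With 1 library left out, the genes called ranged from 0 to 422 against aged sham (422 without aged dMCAO 2), 0 to 692 against young dMCAO (692 without aged dMCAO 1), 0 to 4 in aged against young sham, 0 to 2 in the interaction and 0 to 1 in the young comparison, and of the 7 genes 0 were called in the 2 comparisons tested for them. The longest class by exon length lay −0.057 from all genes, −0.16 in FPKM and −0.15 at a mean of at least 5 CPM.

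Samples with the same replicate number did not deviate together (correlations −0.083 to 0.087). With 2 libraries a group this cannot show that the samples were unpaired. The N code, which numbers the libraries differently, was not checked in this way. With the replicate number as a block, 0 genes were called against aged sham and 3 against young dMCAO. With the N code of the titles as the block, Vps13b in the young comparison was −0.16, and 168 genes were called against aged sham, 192 genes against young dMCAO, 116 in aged against young sham, 25 in the interaction, and 15 in the young comparison. The 747637 and 1297568 reads of the aged dMCAO libraries limit the folds of Sgms1, Cmya5 and Rbm12, which rest on 3, 2 and 3 reads.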
